A study of Homo sapiens with 9 samples.

Results

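The 10 genes described here encode matrix-cutting proteases, their inhibitors and the urokinase pair: the matrix metalloproteases MMP1, MMP7, MMP14, MMP15 and MMP24, the tissue inhibitors of metalloproteases TIMP1, TIMP2 and TIMP3, urokinase (PLAU) and its receptor (PLAUR). They were chosen by symbol and matched to the Ensembl identifiers of the count table, and all 10 were found among its 60649 gene identifiers and among the 19674 genes tested. Polyadenylated RNA was sequenced from OVCAR5, an established epithelial ovarian cancer line. Every library came from a stable line made with lentivirus and selected with puromycin. The 3 groups held 3 libraries each. By the submitters' description NC is the control and SM2 and SM4 are knockdowns, made with hairpins, of METTL3, the enzyme that writes N6-methyladenosine on messenger RNA. METTL3 itself goes against this description, so the names NC, SM2 and SM4 stand here for libraries so labelled and not for a state of METTL3. The labels do not say which hairpin is SM2 or SM4, and each label may stand for 1 selected population. Because the labels do not say that the 3 libraries of a group came from separate cultures, the p-values measure the spread between these libraries, which may be technical.

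Matrix metalloproteases are zinc enzymes that are made as inactive precursors and cut collagens, laminins, other proteases and cell-surface proteins. Some are secreted, and the membrane-type enzymes stay at the cell surface, where MMP14 together with TIMP2 activates other metalloproteases. Urokinase, held at the cell surface by its receptor, turns plasminogen into plasmin, which degrades fibrin and matrix and can activate metalloprotease precursors. In ovarian cancer these enzymes are studied for their part in detachment, peritoneal spread and invasion.

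The targeted gene was looked at first. METTL3 was at 36.3, 34.4 and 36.6 CPM (counts per 1000000 counts of the library, scaled by the trimmed mean of M values) in the libraries labelled NC, 37.1, 39.8 and 40.01 in those labelled SM2, and 60.6, 57.5 and 62.4 in those labelled SM4. It was lowest in NC and highest in SM4, where it was higher than in NC (log2 fold change 0.75, edgeR quasi-likelihood test with Benjamini-Hochberg adjustment, adjusted p = 2.21e-09) and than in SM2 (log2 0.63, adjusted p = 7.46e-08), and SM2 against NC did not pass (log2 0.12, adjusted p = 0.12). This is the order that would be seen if the labels NC and SM4 had been exchanged, which was not tested. With such an exchange SM4 would be the control, NC and SM2 would be the knockdowns, and the knockdown comparisons would be SM4 against NC and SM4 against SM2 with every sign turned, so no direction given here can be read as an effect of lower METTL3. The source name of the 3 libraries labelled SM4 also gives other line names, while their cell line field gives OVCAR5. Library totals ran from 44103272 to 63693728 counts, so that 1 CPM stood for 43.8 to 63.2 counts. The replicates labelled SM2 were less alike than the others: the chi-square of counts per degree of freedom was 16.7 and 13.8 in the 2 pairs that hold SM2 replicate 3, against 4.21 to 6.04 in the other 7 pairs. All 6 epithelial markers (EPCAM, CDH1, KRT7, KRT8, KRT18 and KRT19) were at or above 1 CPM in every library, and all 6 fibroblast markers were below 1 CPM in every library, with a summed level of 0.258 to 0.854 CPM; 1 of them was tested and edgeR and DESeq2 called 0 in each comparison, with 0 at an unadjusted p below 0.05.

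The levels of the genes spanned a wide range. Exon bases are here all bases in any annotated exon of the gene. For some genes they far exceed the reference (canonical) transcript, with 1446 against 769 bases for TIMP1 and 4457 against 1368 for PLAUR. The order of genes given below depends on this length, and an order by canonical transcript was not computed. Per 1000 exon bases, the NC mean was highest for TIMP1 (61.5 ± 1.55 CPM, SD, n = 3), followed by PLAU (50.4 ± 1.30), MMP15 (50.1 ± 2.13), TIMP2 (30.6 ± 0.646), MMP7 (19.95 ± 0.143), MMP14 (15.0 ± 0.668) and PLAUR (13.5 ± 0.132). TIMP3 (0.758 ± 0.0511), MMP24 (0.722 ± 0.0649) and MMP1 (0.0893 ± 0.0201) were far below these. Within this order PLAU and MMP15 did not differ beyond their spread, and neither did TIMP3 and MMP24. By this length the order at the top changed between labels. In the libraries labelled SM2, PLAU (58.9 ± 2.39 CPM per 1000 exon bases) and MMP15 (56.7 ± 2.04) stood above TIMP1 (50.9 ± 3.06). In those labelled SM4, TIMP1 (53.0 ± 1.75) and MMP15 (52.1 ± 2.39) stood above PLAU (45.3 ± 1.43). Which gene leads may differ with another choice of transcript length. Messenger RNA levels give no measure of active enzyme.

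**Figure D1:**
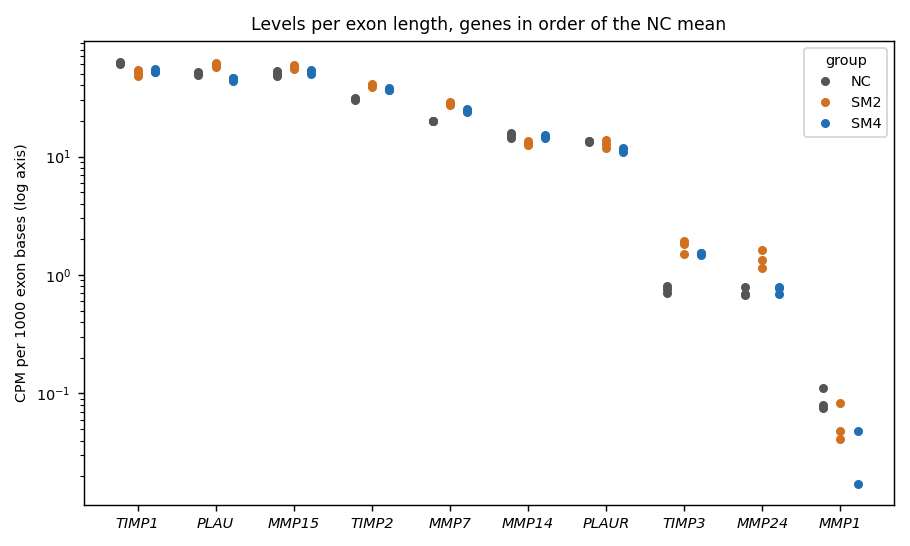
Level of each gene in each of the 9 libraries, in CPM per 1000 exon bases on a log axis, with genes in order of their NC mean; dots are libraries and colours are the labels NC, SM2 and SM4. With all annotated exon bases as the length, TIMP1 leads in NC at 61.5 and PLAU in SM2 at 58.9, and MMP1 lies lowest. The SM4 library with 0 MMP1 counts cannot be drawn on the log axis.

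Against NC, the members changed in both directions. In the libraries labelled SM2, 8 of the 10 genes passed the test, 6 higher (MMP7, MMP15, MMP24, TIMP2, TIMP3 and PLAU) and 2 lower (MMP14 and TIMP1); 22.3% of all genes tested passed in this comparison. In the libraries labelled SM4, 7 passed, 3 higher (MMP7, TIMP2 and TIMP3) and 4 lower (MMP1, TIMP1, PLAU and PLAUR), where 21.2% of all genes passed. Among genes with a mean of at least 1 CPM, which 9 of the 10 members reach, the shares passing were 28.4% and 27%. The median log2 fold change of the 10 genes was 0.20 in SM2 and 0.02 in SM4, and the median size without sign was 0.32 and 0.23, against 0.16 and 0.16 over all genes tested. The comparisons with NC share the same 3 libraries labelled NC, and 5 genes passed in both: MMP7, TIMP2 and TIMP3 were higher and TIMP1 lower in each, while PLAU was higher in one and lower in the other. In bulk RNA, a change in how many cells make a transcript and a change in the RNA per cell cannot be told apart.

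**Figure D2:**
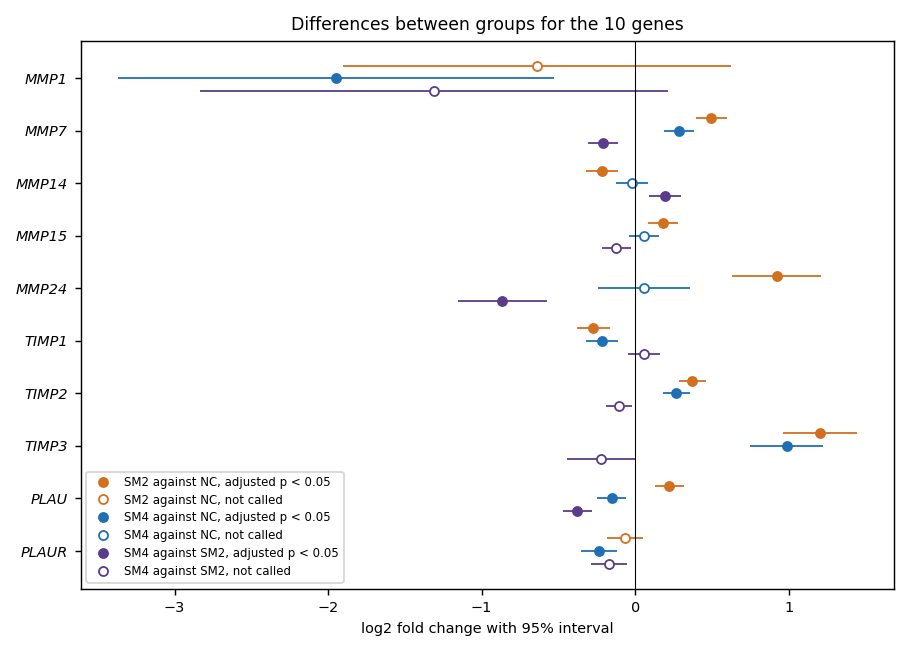
Log2 fold change of each gene with its 95% interval in the 3 comparisons; filled points passed the edgeR test at an adjusted p below 0.05 and open points did not. TIMP3 lies farthest to the right against NC (1.21 and 0.99), MMP24 stands to the right in SM2 alone (0.92), and the intervals of MMP1 are the widest.

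Among the secreted metalloproteases, MMP7 (matrilysin, a small enzyme of epithelial cells that lacks the hemopexin domain; chr11:102520508-102530750, minus strand, GRCh38) was the one with sizeable counts. It was at 46.2, 46.6 and 46.0 CPM in the libraries labelled NC, 63.3, 65.2 and 67.4 in those labelled SM2, and 57.8, 56.5 and 54.9 in those labelled SM4. The 3 groups were fully separate, with SM2 highest and SM4 between SM2 and NC. MMP7 was 1.41-fold higher in SM2 than in NC (log2 0.50, SE 0.0482, edgeR adjusted p = 1.97e-07) and 1.22-fold higher in SM4 (log2 0.29, SE 0.0481, edgeR adjusted p = 0.000159).

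MMP1 (interstitial collagenase, which cuts fibrillar collagen; chr11:102789401-102798160, minus strand) was near the floor of the data. It had 9, 12 and 18 counts in the libraries labelled NC, 6, 11 and 6 in those labelled SM2, and 8, 3 and 0 in those labelled SM4, a mean of 0.245 ± 0.0551, 0.158 ± 0.0622 and 0.0597 ± 0.0666 CPM (SD, n = 3). Each library labelled SM4 lay below each NC library in CPM, and the libraries labelled SM2 overlapped both. MMP1 was lower in SM4 than in NC by edgeR (log2 -1.95, SE 0.681, adjusted p = 0.0422), but not by DESeq2 (log2 -2.00, adjusted p = 0.0713). The edgeR call was also lost when any 1 of 7 libraries was left out, namely NC replicates 1, 2 and 3, SM2 replicates 1 and 2, and SM4 replicates 2 and 3 (log2 -2.06 to -1.45, adjusted p up to 0.164), and without SM4 replicate 1 the value was -3.14. MMP1 also shares 223 exon bases with WTAPP1, a pseudogene on the opposite strand that had 17 to 42 counts per library, and whether strand was used in counting is not given in the sources used here, so its reads are uncertain. In SM2 against NC, MMP1 did not pass (log2 -0.64, 95% interval -1.91 to 0.62).

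The 3 membrane-type metalloproteases did not move together. MMP14 (MT1-MMP, a collagenase at the cell surface; chr14:22836560-22849041, plus strand) was at 69.6, 66.3 and 72.5 CPM in the libraries labelled NC, 59.3, 58.2 and 61.9 in those labelled SM2, and 66.2, 70.1 and 69.2 in those labelled SM4. The libraries labelled SM2 lay below all others, and NC and SM4 overlapped. MMP14 was 1.16-fold lower in SM2 than in NC (log2 -0.22, SE 0.0499, edgeR adjusted p = 0.00315), while the interval in SM4 against NC ran from -0.12 to 0.08.

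MMP15 (MT2-MMP; chr16:58025754-58046901, plus strand), the metalloprotease with the highest level here, was at 209.6, 204 and 222 CPM in the libraries labelled NC, 249, 239 and 232 in those labelled SM2, and 209.6, 229 and 223 in those labelled SM4. All 3 libraries labelled SM2 lay above all the others. The gene was 1.13-fold higher in SM2 than in NC (log2 0.18, SE 0.0467, edgeR adjusted p = 0.00742), a call lost without NC replicate 2 (log2 0.15, adjusted p = 0.0615). In SM4 against NC it did not pass (95% interval -0.04 to 0.16).

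MMP24 (MT5-MMP, best known from the nervous system; chr20:35226690-35276998, plus strand) was low but distinct. It was at 2.99, 3.00 and 3.49 CPM in the libraries labelled NC, 7.18, 5.80 and 5.04 in those labelled SM2, and 3.37, 3.05 and 3.45 in those labelled SM4. The SM2 libraries were above all others with a wide spread among themselves, and NC and SM4 overlapped. The gene was 1.89-fold higher in SM2 than in NC (log2 0.92, SE 0.140, edgeR adjusted p = 5.48e-05) and did not pass in SM4 against NC (95% interval -0.24 to 0.36). MMP24 shares 806 exon bases with the antisense gene MMP24OS, whose mean was 64.1, 71.8 and 61.5 CPM in NC, SM2 and SM4, and which also was higher in SM2 than in NC (log2 0.16, edgeR adjusted p = 0.0327). As the strand setting of the counting is not given, reads of the pair cannot be told apart and the MMP24 values are uncertain.

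**Figure D3:**
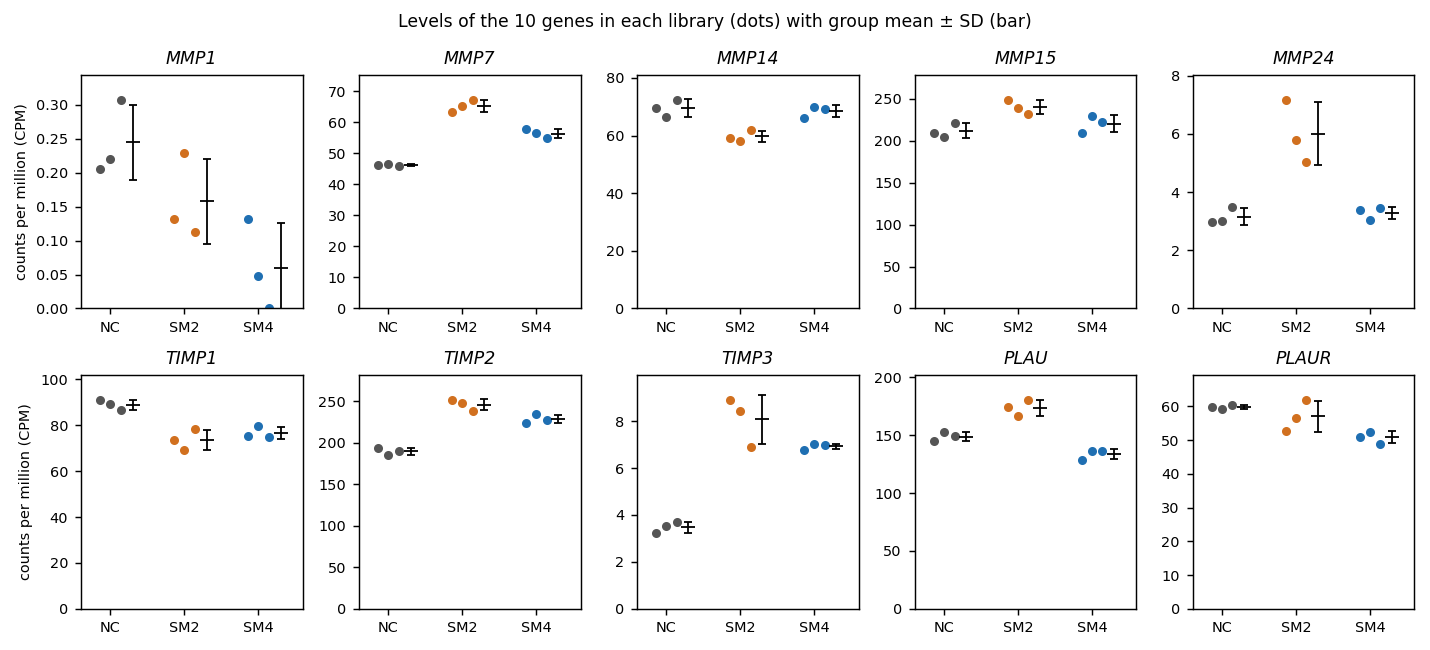
Level of each gene in CPM (vertical axes start at 0) for the 9 libraries by label; dots are libraries and the bar beside them is the group mean with its SD, n = 3. TIMP3 and MMP7 in SM2 and SM4 sit clear of NC, MMP24 stands apart in SM2 alone, and PLAU moves up in SM2 and down in SM4.

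The 3 TIMPs, which bind active metalloproteases in a one-to-one complex, split by gene in the same way in both labels against NC. Both comparisons share the NC libraries. In SM4 against SM2 no TIMP passed the main test (edgeR adjusted p = 0.54, 0.107 and 0.207 for TIMP1, TIMP2 and TIMP3). TIMP1 (a secreted inhibitor that is a weak blocker of MMP14; chrX:47582408-47586789, plus strand) was at 91.0, 89.3 and 86.6 CPM in the libraries labelled NC, 73.5, 69.3 and 78.2 in those labelled SM2, and 75.3, 79.5 and 75.0 in those labelled SM4. Every NC library lay above the other 6, and SM2 and SM4 overlapped. TIMP1 was 1.21-fold lower in SM2 (log2 -0.27, SE 0.0505, edgeR adjusted p = 0.000444) and 1.16-fold lower in SM4 (log2 -0.22, SE 0.0502, edgeR adjusted p = 0.00341).

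TIMP2 (which blocks MMP14 and also takes part in the activation of pro-MMP2 by it; chr17:78852977-78925387, minus strand) went the other way. It was at 194, 186 and 190.2 CPM in the libraries labelled NC, 252, 248 and 238 in those labelled SM2, and 224, 234 and 228 in those labelled SM4. The groups did not overlap and NC was lowest. TIMP2 was 1.30-fold higher in SM2 than in NC (log2 0.37, SE 0.0412, edgeR adjusted p = 1.12e-06) and 1.21-fold higher in SM4 (log2 0.27, SE 0.0412, edgeR adjusted p = 5.52e-05).

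TIMP3 (the inhibitor that stays bound to the matrix and also blocks ADAM proteases; chr22:32801705-32863041, plus strand) showed the largest called increase of the 10 genes in each comparison with NC. It was at 3.24, 3.51 and 3.71 CPM in the libraries labelled NC, 8.91, 8.45 and 6.90 in those labelled SM2, and 6.79, 7.01 and 6.98 in those labelled SM4. NC was lowest in every case, and SM2 and SM4 overlapped. The gene was 2.31-fold higher in SM2 (log2 1.21, SE 0.116, edgeR adjusted p = 1.65e-07) and 1.98-fold higher in SM4 (log2 0.99, SE 0.115, edgeR adjusted p = 2.01e-06). Over 16 alternative settings its log2 fold change stayed between 1.13 and 1.31 in SM2 and between 0.94 and 1.03 in SM4. The rise brought TIMP3 to 1.76 ± 0.228 and 1.51 ± 0.0257 CPM per 1000 exon bases, still far below TIMP2 at 39.6 ± 1.10 and 36.9 ± 0.830.

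PLAU (urokinase, the serine protease that activates plasminogen, at chr10:73909177-73917496, plus strand) was the gene that passed in opposite directions against NC. It was at 145, 152 and 149 CPM in the libraries labelled NC, 174, 166 and 181 in those labelled SM2, and 129, 136 and 136 in those labelled SM4. The 3 groups were fully separate, with SM2 highest and SM4 lowest. With SM4 instead as the reference, PLAU would be higher in both NC and SM2 (log2 -0.38 in SM4 against SM2). MMP7 would then be the gene that went both ways, lower in NC and higher in SM2. PLAU was 1.17-fold higher in SM2 than in NC (log2 0.22, SE 0.0448, edgeR adjusted p = 0.000904) and 1.11-fold lower in SM4 (log2 -0.15, SE 0.0449, edgeR adjusted p = 0.0174). Leaving out NC replicate 2 (log2 -0.14), NC replicate 3 (-0.15) or SM4 replicate 1 (-0.12) ended the call of the decrease, with adjusted p up to 0.138. PLAU shares 915 exon bases with the antisense gene C10orf55, whose mean was 0.768 CPM in NC.

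PLAUR (the glycolipid-anchored urokinase receptor; chr19:43646095-43670547, minus strand) was at 59.9, 59.4 and 60.6 CPM in the libraries labelled NC, 52.7, 56.7 and 62.0 in those labelled SM2, and 51.1, 52.5 and 48.9 in those labelled SM4. The libraries labelled SM4 lay below all others, while those labelled SM2 spread across the NC range. PLAUR was 1.18-fold lower in SM4 than in NC (log2 -0.24, SE 0.0560, edgeR adjusted p = 0.00387), and its interval in SM2 against NC ran from -0.19 to 0.05. In the libraries labelled SM4 urokinase and its receptor were thus both lower than in NC, the receptor under each of its 16 alternatives.

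The direct comparison of the libraries labelled SM4 with those labelled SM2, between which METTL3 also differed 1.54-fold, gave 4 calls among the 10 genes, 1 higher (MMP14) and 3 lower (MMP7, MMP24 and PLAU) in SM4, where 12.8% of all genes tested passed. PLAU differed with the smallest adjusted p: it was 1.30-fold lower in SM4 than in SM2 (log2 -0.38, SE 0.0448, edgeR adjusted p = 5.32e-06). MMP24 was 1.82-fold lower (log2 -0.87, SE 0.138, edgeR adjusted p = 0.000169) and MMP7 1.16-fold lower (log2 -0.21, SE 0.0476, edgeR adjusted p = 0.00457). MMP14 was 1.14-fold higher in SM4 (log2 0.20, SE 0.0497, edgeR adjusted p = 0.0114), a call lost without SM2 replicate 2, SM4 replicate 2 or SM4 replicate 3 (log2 0.18, 0.18 and 0.19). The TIMPs did not pass, with 95% intervals of -0.05 to 0.16 for TIMP1, -0.19 to -0.02 for TIMP2 and -0.45 to 0.005 for TIMP3. PLAUR fell just short (log2 -0.17, edgeR adjusted p = 0.0545), and passed by DESeq2 (adjusted p = 0.0369), with a replicate block (0.0458), with only genes of at least 1 CPM (0.0456) and without SM2 replicate 1 (log2 -0.22, adjusted p = 0.0105). Without SM2 replicate 3, MMP15 (log2 -0.15) and TIMP2 (log2 -0.13) passed as lower in SM4.

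RefSeq promoter sequences of 300 bases (GRCh38.p14, from 250 before to 50 after the start) were held for 8 of the 10 genes. None was held for MMP1 and TIMP2. Sequences are shown for MMP7 and PLAUR, which of these 8 hold the AP-1 motif within this window. Also shown are the sequences of TIMP3, the largest called increase, and PLAU, which passed in opposite directions against NC. They are printed 5′ to 3′ on the gene's strand, and capitals mark matches on either strand to the letters TGAGTCA bound by AP-1 factors, the letters CAGGAA bound by factors of the ETS family, the letters GGGCGG bound by Sp1, and the TATA box letters TATAAA. A match on the reverse strand appears as the reverse complement. PLAU has 2 entries, and the one with matches is shown.
MMP7, chr11:102530698-102530997, minus strand: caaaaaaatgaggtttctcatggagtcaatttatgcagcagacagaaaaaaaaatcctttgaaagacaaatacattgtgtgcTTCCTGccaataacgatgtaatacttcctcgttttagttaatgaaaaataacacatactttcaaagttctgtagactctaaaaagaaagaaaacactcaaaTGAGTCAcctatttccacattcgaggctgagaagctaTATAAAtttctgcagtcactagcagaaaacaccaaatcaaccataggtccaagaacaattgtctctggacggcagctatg
PLAUR, chr19:43670120-43670419, minus strand: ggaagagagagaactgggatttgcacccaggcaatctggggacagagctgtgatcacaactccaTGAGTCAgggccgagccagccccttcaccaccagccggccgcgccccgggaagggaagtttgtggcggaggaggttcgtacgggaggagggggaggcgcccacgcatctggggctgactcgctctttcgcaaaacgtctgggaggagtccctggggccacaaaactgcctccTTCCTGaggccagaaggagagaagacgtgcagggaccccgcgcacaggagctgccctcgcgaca
TIMP3, chr22:32801455-32801754, plus strand: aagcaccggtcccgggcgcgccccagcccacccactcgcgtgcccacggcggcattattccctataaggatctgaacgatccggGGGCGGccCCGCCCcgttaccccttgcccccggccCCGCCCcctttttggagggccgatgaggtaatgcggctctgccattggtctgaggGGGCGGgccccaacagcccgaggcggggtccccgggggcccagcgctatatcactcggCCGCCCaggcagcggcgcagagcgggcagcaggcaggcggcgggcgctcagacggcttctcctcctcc
PLAU, chr10:73910882-73911181, plus strand: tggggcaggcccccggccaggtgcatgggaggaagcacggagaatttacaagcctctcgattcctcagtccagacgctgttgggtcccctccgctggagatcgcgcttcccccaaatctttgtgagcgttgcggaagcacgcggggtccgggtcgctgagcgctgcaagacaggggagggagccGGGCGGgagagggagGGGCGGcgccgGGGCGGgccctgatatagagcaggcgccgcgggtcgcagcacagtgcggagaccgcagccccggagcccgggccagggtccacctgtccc

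In MMP7 the AP-1 motif begins 67 bases before the start and the TATA motif 30 bases before it, with an ETS match 168 bases before it. The AP-1 motif of PLAUR begins 186 bases before the start, and its ETS match 14 bases before it. TIMP3 holds 5 matches to GGGCGG and neither AP-1 nor ETS letters, and the entry shown for PLAU holds 3 matches to GGGCGG. Of 35116 promoters of the same length, 4.95% hold TGAGTCA, 28.4% CAGGAA, 45.0% GGGCGG and 11.5% TATAAA. Among the members with a sequence, 2 genes hold TGAGTCA (MMP7 and PLAUR), 5 hold CAGGAA (MMP7, MMP14, MMP15, TIMP1 and PLAUR), 6 hold GGGCGG (MMP14, MMP15, MMP24, TIMP1, TIMP3 and PLAU), and MMP7 alone holds TATAAA. The cyclic AMP response element TGACGTCA, found in 1.85% of promoters, was in none of them. Of the 2 genes with TGAGTCA, MMP7 was higher than in NC in SM2 (log2 0.50) and SM4 (log2 0.29). PLAUR did not pass in SM2 (log2 -0.07) and was lower in SM4 (log2 -0.24). Whether the motif bears on these changes was not tested. A match is a description of the letters, and binding was not measured.

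Transcription factors of the AP-1 and ETS families are textbook regulators of metalloprotease and urokinase genes, and 12 of them were listed. Against NC, 9 of the 12 passed in SM2 (4 higher, 5 lower) and 7 in SM4 (3 higher, 4 lower). Of all genes tested 22.3% and 21.2% passed, and of those with a mean of at least 1 CPM 28.4% and 27%. JUN fell in both labels (log2 -0.26, edgeR adjusted p = 0.00706 in SM2; log2 -0.85, adjusted p = 1.17e-08 in SM4), and so did ETS1 (log2 -0.50 and -0.49). ETV5 rose in both (log2 0.65 and 0.58). FOS, with a mean of 6.65 CPM over the 9 libraries, was higher in both (log2 0.32 and 0.52), in SM2 with an edgeR adjusted p of 0.0481 that DESeq2 did not call. Its relatives FOSL1 and FOSL2, named here after their values were seen, had means of 276 and 237 CPM. They passed as lower in both, FOSL1 with log2 -0.45 and -0.46 and FOSL2 with log2 -0.45 and -0.47. JUND and ELF3, likewise named after their values were seen, went the other way. JUND was higher in SM2 (log2 0.46, edgeR adjusted p = 8.3e-07) and did not pass in SM4 (log2 0.10). ELF3 was higher in both (log2 0.35 and 0.43). FOSB was below 1 CPM in every library and did not pass.

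Some other genes of plasminogen activation passed as well. Of 12 listed, 10 were tested and 4 passed in SM2 against NC (3 higher, 1 lower), 5 in SM4 against NC (3 higher, 2 lower) and 5 in SM4 against SM2, beside the 22.3%, 21.2% and 12.8% of all genes. PLAT, the tissue-type activator, had an NC mean of 114 CPM per 1000 exon bases beside 50.4 for PLAU, with all annotated exon bases as the length. In CPM it was at 872, 873 and 914 CPM in the libraries labelled NC, 1297, 1292 and 1294 in those labelled SM2, and 1429, 1530.3 and 1547 in those labelled SM4. It rose in both labels (log2 0.55, SE 0.0391, edgeR adjusted p = 2.66e-09 in SM2; log2 0.76, SE 0.0392, adjusted p = 1.66e-11 in SM4), whereas PLAU was lower in SM4. SERPINB6, an intracellular serine protease inhibitor, fell in SM4 (log2 -0.29, edgeR adjusted p = 7.86e-05) and did not pass in SM2 (log2 -0.12). SERPINA5, an inhibitor of urokinase, fell in both (log2 -0.42 and -0.21), and LRP1, an endocytic receptor that clears protease complexes, rose in both (log2 0.48 and 0.42). Plasminogen itself (PLG) and SERPINB2 were below 1 CPM in every library.

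Most other metalloproteases were hardly expressed: 15 of the other 18 listed, including the gelatinases MMP2 and MMP9, were below 1 CPM in every library. Of the 8 tested, 2 passed in SM2 against NC, both higher, MMP11 (stromelysin-3, log2 0.66, edgeR adjusted p = 0.0282) and MMP28, and the calls were the same 2 genes by DESeq2. Both were low. MMP11 had a mean of 1.51 CPM over the 9 libraries, and MMP28 is among the 15 below 1 CPM, with at most 0.94 CPM. When SM4 was set against NC and then against SM2, edgeR and DESeq2 called 0 of the 8, with 1 and 2 at an unadjusted p below 0.05 by edgeR. Of the 4 other metalloprotease inhibitors, RECK, a membrane-anchored one, passed in SM4 by edgeR (log2 0.55, adjusted p = 0.0428) but not by DESeq2, and in SM2 edgeR called 0 of the 4, with 0 at an unadjusted p below 0.05 and 0 by DESeq2. FURIN, the convertase that activates pro-MMP14, rose in SM2 (log2 0.39, edgeR adjusted p = 3.41e-06) and further in SM4 (log2 0.74, adjusted p = 3.81e-10), and differed between them (log2 0.35, adjusted p = 2.61e-05). Of the 4 convertases, 2 passed in SM2 and 3 in SM4, all higher, among them PCSK6 (log2 0.33 and 0.32). Of the 5 tested membrane serine proteases and inhibitors, 3 passed in SM2 (2 higher, 1 lower) and 3 in SM4 (all higher). The proteases TMPRSS2 (log2 0.55 and 0.51) and PRSS8 (log2 0.37 and 0.49) rose in both labels. As a background to these counts, 22.3% (SM2) and 21.2% (SM4) of all genes tested differed from NC, and 12.8% between SM4 and SM2. With a mean of at least 1 CPM these shares were 28.4%, 27% and 16.8%. The 2 of 8 metalloproteases called in SM2 (25%) lay near the background. Whether any of these small lists exceeded it was not tested.

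The proteins that these proteases cut were followed in a list of 21 matrix genes, 18 of them tested. In SM2 against NC 12 passed (5 higher, 7 lower), in SM4 against NC 10 (4 higher, 6 lower), and in SM4 against SM2 7 (4 higher, 3 lower). Of all genes tested, 22.3%, 21.2% and 12.8% passed in these comparisons, in this order. Among genes with a mean of at least 1 CPM the shares were 28.4%, 27% and 16.8%. Collagen genes made up those that rose in SM2, led by COL4A1, of basement membrane (log2 1.26 in SM2 and 1.48 in SM4), and COL6A2 (log2 1.26 and 0.83). Laminin genes were among those that fell: LAMA3, LAMB1, LAMB3 and LAMC1, named here after their values were seen, passed as lower in both labels. LAMA5, likewise named after its values were seen, did not pass against NC (log2 -0.09 in SM2 and 0.10 in SM4) and was higher in SM4 than in SM2 (log2 0.19, edgeR adjusted p = 0.0218). NID2, a laminin-binding basement membrane protein, also fell in both (log2 -0.79 and -0.93), and SPARC passed in SM4 alone (log2 1.04, edgeR adjusted p = 0.000593), where it was also higher than in SM2 (log2 0.66, adjusted p = 0.0284). COL4A1, NID2 and SPARC were low, with a mean of 1.87, 1.99 and 1.503 CPM over the 9 libraries.

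**Figure D4:**
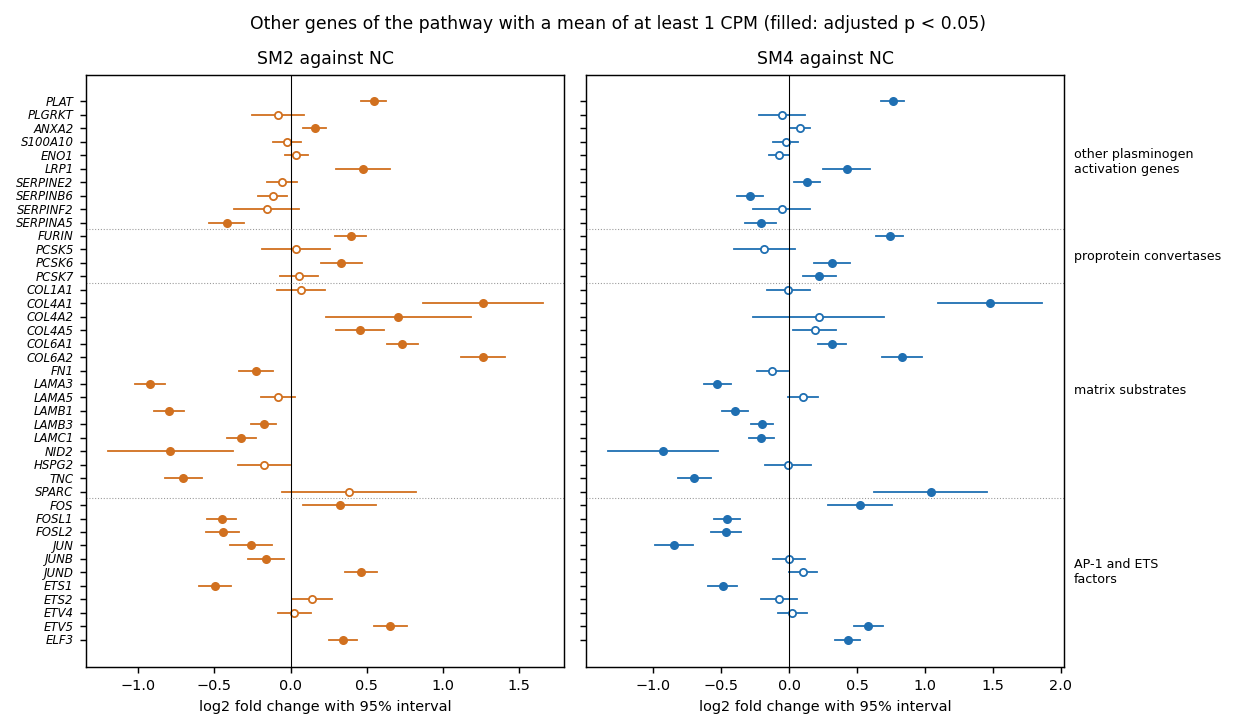
Log2 fold change with its 95% interval for the other plasminogen activation genes, the proprotein convertases, the matrix substrates and the AP-1 and ETS factors that had a mean of at least 1 CPM, in SM2 against NC (left) and SM4 against NC (right); filled points passed the edgeR test at an adjusted p below 0.05. PLAT and FURIN lie to the right in both panels, and the laminin genes that passed lie to the left in both.

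Markers of cell types that also make these proteases were compared beside the members. Of the 4 endothelial markers, 3 were below 1 CPM in every library, KDR at 0 counts throughout, while PECAM1 was higher in both labels (log2 0.59 and 1.32, edgeR adjusted p = 0.00016 and 2.29e-09); the summed level was 5.42 to 5.85 CPM in NC, 7.79 to 8.90 in SM2 and 13.1 to 15.2 in SM4. Of the 5 leukocyte markers, 4 were below 1 CPM in every library, PTPRC included, while CD14 was higher in both labels (log2 0.55 and 0.83); the summed level was 5.54 to 6.58, 8.61 to 9.34 and 10.2 to 11.1 CPM. Of the 6 epithelial markers, 5 passed in SM2 (3 higher, 2 lower) and 4 in SM4 (3 higher, 1 lower), beside 22.3% and 21.2% of all genes tested. CDH1 was lower in both (log2 -0.25 and -0.37) and KRT8 higher in both (log2 0.28 and 0.19). The part of these movements in the results for the members was not tested.

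The genes whose log2 CPM followed a member most closely over the 9 libraries, out of 12079 protein-coding genes ranked, were SEMA6C, MRC2 and TRAPPC6A for MMP7 (Pearson r 0.996, 0.991 and 0.991), SLC43A1, SLC29A4 and KLHL26 for TIMP3 (0.993 each), BIK, EMC10 and KCNK1 for PLAU (0.989, 0.976 and 0.975), and POLR1E, HIVEP3 and C2orf74 for MMP1 (0.973, 0.956 and 0.949). The 9 points are 3 groups of 3 libraries, so that any gene with the same order of groups scores high, and for MMP1 they rest on 0 to 18 counts.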

How the data were processed

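The authors aligned the reads to GRCh38 (hg38) with HISAT2 and deposited raw counts per gene made with featureCounts of Subread, per the labels and the study's methods; versions, the annotation release and the strand setting are not given in the sources used here, and the labels and the methods name different library kits. Of 60649 identifiers, 60463 matched GENCODE release 44, from which symbols, positions and exon lengths were taken. Counts were tested in edgeR 4.0.16 (R 4.3.3): filterByExpr, TMM scaling, and the quasi-likelihood F test on 19674 genes with all 9 libraries and group as the single term, Benjamini-Hochberg adjustment over all genes and a threshold of 0.05. Fold changes are the fitted ones. CPM were computed with TMM scaling. Alternatives were DESeq2 1.42.0, other scaling and filters, the compared libraries alone, a replicate block, a stricter threshold and leaving out each library. The scripts were tested on simulated data. Members and lists were chosen with earlier results of these data known. Named with values were the members, METTL3, and from each list up to 4 genes called in any comparison with a mean of at least 1 CPM, by size of change. For MMP1, MMP7, PLAU and TIMP3, the 3 genes with the highest correlation were named. LAMA5, FOSL1, FOSL2, JUND and ELF3 were given values outside this rule, after their values were seen. Counting error alone is larger for genes with few counts, above all MMP1. Some genes of the plasminogen and matrix lists are not reported here.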

Additional observations from a re-analysis of the deposited data

Results flagged for a closer look

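In SM4 against SM2 by edgeR, 12.8% of all genes tested passed, and 16.8% of those with a mean of at least 1 CPM. The libraries labelled SM4 and SM2 differed from each other in 4 of the 10 genes. METTL3 was also higher in SM4 than in SM2 (log2 0.63), against the label of SM4 as a knockdown, so this is not shown to be a difference between knockdowns. The log2 difference was -0.211 for MMP7 (adjusted p = 0.00457), 0.195 for MMP14 (adjusted p = 0.0114), -0.866 for MMP24 (adjusted p = 0.000169) and -0.377 for PLAU (adjusted p = 5.32e-06). For MMP7 both labels were higher than NC and SM2 by more, for MMP14 and MMP24 SM2 alone passed against NC, and for PLAU the labels passed in opposite directions. The NC libraries cancel in this comparison. The reads of MMP24 cannot be told apart from those of its antisense partner without strand.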

How the results depend on the processing

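Of the fold changes of the 10 genes under the alternatives, 451 kept their direction and side of the threshold, 15 lost a call, 6 gained one and 2 turned direction. Over 17 alternatives the number of the 10 genes called was 7 to 8 in SM2 against NC, 5 to 7 in SM4 against NC and 3 to 6 in SM4 against SM2. Both turns were of MMP14 in SM4 against NC, which was not called in any setting: log2 0.0102 without NC replicate 3 and 0.0067 without SM4 replicate 1; leaving out each library in turn gave -0.055 to 0.0102. Of the lost calls, 8 were of MMP1 in SM4 against NC, 3 of PLAU in the same comparison, 3 of MMP14 in SM4 against SM2 and 1 of MMP15 in SM2 against NC; the cause was not tested. MMP1 could not be tested with only genes of at least 1 CPM.

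The replicate numbers are not tied to a shared culture or day, and same-numbered libraries did not deviate together (correlations of -0.05 to 0.05). With a replicate block, 4693, 4484 and 2815 genes were called against 4389, 4173 and 2518 without it, and among the 10 genes it changed only PLAUR in SM4 against SM2 (log2 -0.17, edgeR adjusted p = 0.0458). Without SM2 replicate 3, a choice made after seeing the data, the calls in SM4 against SM2 by edgeR went from 0 to 1 for the other metalloprotease inhibitors and the membrane serine proteases, and from 0 to 2 for the epithelial markers. Depth limits MMP1 most, with at most 18 counts in a library.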

Other observations

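METTL3 with its partners methylates adenosines mostly within the letters GGACT and close variants. In the canonical transcripts of 13785 tested protein-coding genes, the median was 0.935 GGACT per 1000 bases. MMP7 held 2.68 (3 matches in 1119 bases), MMP14 2.16 and PLAU 2.13, which lay at percentiles 97.1, 93.1 and 92.7 of these genes. The other members were TIMP1 (percentile 70.7), MMP15 (67.1), MMP1 (55), TIMP2 (42.5), PLAUR (36.4), MMP24 (33.1) and TIMP3 (17.4). These are letters in the reference, methylation was not measured in these libraries, and whether they bear on the changes was not tested.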
